A study of Mus musculus with 12 samples.

Results

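The 6 genes Defb1, Defb3, Defb4, Defb6, Defb14 and Camp, which encode 5 mouse beta-defensins and the single mouse cathelicidin, were followed through 12 expression arrays of dorsal skin. They were taken as a named list of antimicrobial peptide genes, 6 of the 22180 genes measured, and each had exactly 1 row of its own on the array. All mice were C57Bl/6, and every array carried RNA pooled from male and female animals. The groups, named as labelled, were WT, IL-6KO (loss of IL-6 only), IL-17C+ (a transgene for the cytokine IL-17C) involved and uninvolved skin, and IL-17C+KO (transgene and loss of IL-6) involved and uninvolved skin. Each of the 6 groups had n = 2 pools, 1 at 10 weeks and 1 at 14 weeks, with 5 mice per pool, except for the 10-week pools of WT and IL-6KO with 4. The sources used here name neither the promoter that drives the transgene nor whether involved and uninvolved pools came from the same animals. The series asks how psoriasis-like inflammation is sustained in IL-17C transgenic mice when IL-6 is missing.

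Beta-defensins are small cationic peptides, folded by disulfide bonds, that epithelial cells secrete to kill microbes and that also attract leukocytes. Some, such as human beta-defensin 1 and mouse Defb1, are made without a stimulus, whereas others are induced when IL-17, IL-1, TNF or IL-22 family cytokines act on keratinocytes. Defb14 is the mouse orthologue of human beta-defensin 3, Defb3 and Defb4 are inducible epithelial defensins often set beside human beta-defensin 2, and Defb6 was described in mouse skeletal muscle and epithelia. Camp encodes the precursor of the peptide CRAMP, which neutrophil precursors store in their granules and which keratinocytes can also make.

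In the RefSeq order of GRCm38.p6, Defb14, Defb4, Defb6 and Defb3 lie in 1 run of 8 genes on chromosome 8, in that order, and Defb1 follows on the same chromosome after 96 other genes. Camp lies on chromosome 9. Upstream sequences from RefSeq matched 3 of the 6 genes. The 250 bases before the annotated start are shown for Defb3 and Defb6, the defensins among these 3 genes. Capitals mark matches to the motifs named below.
Defb3, GRCm38.p6 chr8:19293111-19293360, plus strand: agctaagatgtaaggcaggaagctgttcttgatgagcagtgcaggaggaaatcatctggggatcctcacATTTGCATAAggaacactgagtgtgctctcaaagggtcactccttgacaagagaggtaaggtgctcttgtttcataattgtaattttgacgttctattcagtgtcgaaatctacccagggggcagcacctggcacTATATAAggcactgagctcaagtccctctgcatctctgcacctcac
Defb6, GRCm38.p6 chr8:19225228-19225477, plus strand: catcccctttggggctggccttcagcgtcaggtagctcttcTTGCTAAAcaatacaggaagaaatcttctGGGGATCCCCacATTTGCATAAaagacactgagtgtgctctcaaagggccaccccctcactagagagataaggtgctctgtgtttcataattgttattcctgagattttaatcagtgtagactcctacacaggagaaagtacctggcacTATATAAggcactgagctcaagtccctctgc

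Aligned end to end, these upstream regions were identical at 192 of 265 aligned columns (72.5%). The corresponding region of Camp matched Defb3 at 45.9% and Defb6 at 46.0% of aligned columns. Both defensins held the octamer ATTTGCAT, which was found in 1.60% of 32851 RefSeq promoters of the same length, and a TATATAA box, found in 3.04%. The C/EBP core motif TTGCNNAA (9.56% of promoters) overlapped the octamer in both genes, and Defb6 held a further copy. The only NF-kappa-B motif match of these regions was in Defb6, where 7.25% of all promoters held one. Motifs were searched on both strands, and the AP-1 motif TGANTCA (6.75%) and the STAT motif TTCNNNGAA (7.02%) had no match in the Defb3, Defb6 or Camp window. These are matches of letters, chosen with the sequences in view, and not sites shown to be bound.

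On several arrays the levels of Il6 or Il17c did not follow the labels. Il6, the gene labelled as lost, read 2.92 and 2.88 (log2, 10 and 14 weeks) on the WT arrays and 2.68 and 2.79 on those of IL-6KO, below the array median on all 4 arrays, so these do not check the label. It was highest on the arrays labelled IL-17C+KO uninvolved, at 4.93 and 5.00, followed by the 14-week array labelled IL-17C+KO involved at 4.64, against 3.14 at 10 weeks. IL-17C+ involved skin read 4.23 and 3.21 and IL-17C+ uninvolved skin 3.28 and 3.02. Against IL-6KO skin, Il6 was higher in skin labelled IL-17C+KO uninvolved by 2.23 ± 0.41 (limma adjusted p = 0.0388). Whether the Il6 probes lie in the disrupted part of the gene was not tested. Il17c, the gene of the transgene, read 4.67 and 4.96 in WT, 4.74 and 4.16 in IL-17C+ uninvolved and 5.81 and 6.63 in IL-17C+ involved skin, where it rose over WT by 1.40 ± 0.30 (limma adjusted p = 0.0328). It read 6.30 and 6.17 in IL-6KO skin, which is labelled as free of the transgene. Arrays labelled IL-17C+KO uninvolved read 6.16 and 6.25, above the 5.32 and 5.62 of those labelled IL-17C+KO involved. IL-6KO skin is also labelled involved as a skin type. Whether the Il17c probes read the transgene is unknown here. The groups are therefore called by their labels, and every direction drawn from IL-6KO, IL-17C+KO or IL-17C+ uninvolved arrays rests on these labels. All 15 measured epidermal keratinocyte markers lay above the array median on all 12 arrays, as did all 21 skeletal muscle markers. The mean of the muscle list ranged from 7.28 to 10.03 over the arrays and that of the neutrophil list (12 genes) from 4.03 to 7.78. A lower level in such bulk tissue cannot be told apart from fewer cells of a type.

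Defb3 changed most among the 6 genes. Its log2 level in WT was 2.74 at 10 weeks and 2.55 at 14 weeks. IL-17C+ uninvolved skin was as low, with 2.87 and 2.24. In IL-17C+ involved skin it was 7.72 and 7.98. IL-17C+KO uninvolved skin had the highest levels, 8.33 and 8.53. These 4 pools were the highest of all and did not overlap with any other group. The remaining groups were split by age: IL-6KO skin read 3.82 at 10 weeks and 7.18 at 14 weeks, and IL-17C+KO involved skin 2.99 and 6.9997. Over the 12 arrays Defb3 spanned 6.29 log2 units, a 78.0-fold range, and it lay above the array median on 6 arrays. On the other 6 its level is near the low end of the scale, so the size of a rise from there is uncertain.

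Defb14 had the same extremes with a narrower span of 3.74 log2 units. WT read 3.31 and 3.16 at 10 and 14 weeks and IL-17C+ uninvolved skin 2.88 and 3.31, each below the median of its array. IL-17C+ involved skin had 6.62 and 6.61. The IL-17C+KO uninvolved pools had 6.53 and 6.44. IL-6KO skin lay between at 4.66 and 4.95, as did IL-17C+KO involved skin at 4.38 and 5.73, and these intermediate groups overlapped each other. In mean level the order was IL-17C+ involved, IL-17C+KO uninvolved, IL-17C+KO involved, IL-6KO, WT and IL-17C+ uninvolved skin, and the lowest pair overlapped as well.

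Defb4 followed a different order among the groups labelled KO. WT pools had 4.20 and 4.28 at 10 and 14 weeks, against 4.48 and 4.49 for IL-17C+ uninvolved pools. Levels reached 5.35 and 6.63 for IL-17C+ involved pools, 6.41 and 6.48 for IL-17C+KO uninvolved pools and 5.54 and 6.87 for IL-6KO pools, and these groups overlapped one another. IL-17C+KO involved skin, at 5.08 and 4.84, lay below those 3 groups and above WT and IL-17C+ uninvolved skin. The single highest Defb4 value of the series was thus on the 14-week IL-6KO array.

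**Figure D1:**
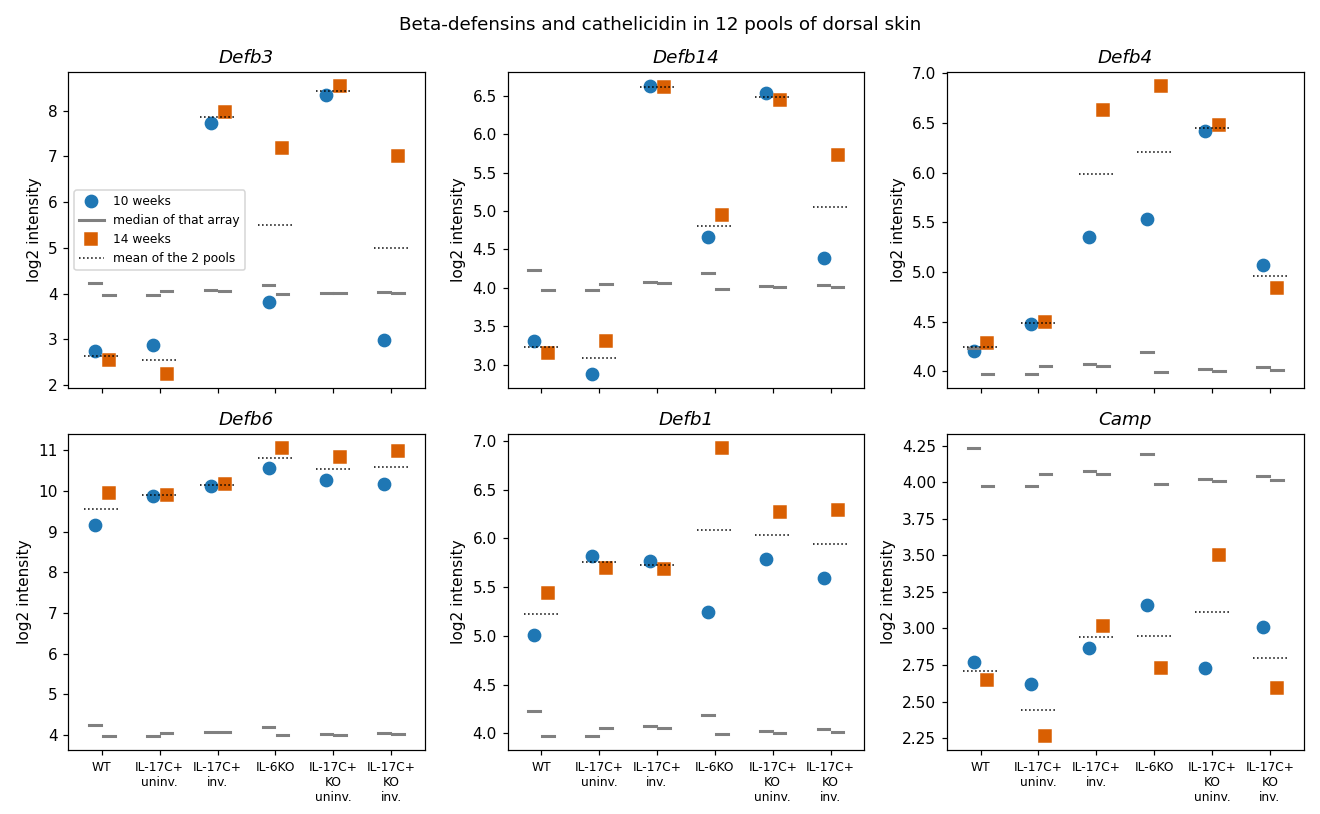
Each panel shows 1 gene as log2 intensity (vertical axis) in the 6 labelled groups (horizontal axis), with circles for the 10-week pool, squares for the 14-week pool, dotted lines for the mean of both and short grey lines for the median of that array. Defb3 and Defb14 had their highest levels at both ages in IL-17C+ involved and IL-17C+KO uninvolved skin, and Camp stayed below every array median.

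Defb6 was above the array median in every pool and spanned 1.90 log2 units, a 3.74-fold range. WT pools read 9.15 and 9.96 on the log2 scale, IL-17C+ uninvolved pools 9.88 and 9.90, and IL-17C+ involved pools 10.12 and 10.18. IL-6KO pools read 10.57 and 11.05, IL-17C+KO uninvolved pools 10.26 and 10.83, and IL-17C+KO involved pools 10.17 and 10.99. These 3 groups labelled KO overlapped one another, and their 14-week pools held the highest values. Skeletal muscle, where this gene was first described, had its highest list means (9.30 to 10.03) in WT and IL-17C+ uninvolved skin and on the 10-week IL-17C+KO involved array, and Defb6 was lowest in the WT pools and the IL-17C+ uninvolved pools.

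Defb1, the defensin made without a stimulus, ranged from 5.01 in WT at 10 weeks to 6.93 in IL-6KO skin at 14 weeks, with a median of 5.73. It read 5.77 and 5.69 in IL-17C+ involved skin against 5.82 and 5.70 in IL-17C+ uninvolved skin, so involved and uninvolved pools overlapped. Camp lay between 2.27 and 3.50, below the array median on all 12 arrays, with its highest value in IL-17C+KO uninvolved skin at 14 weeks. Camp passed by limma in no comparison. Its mean was lowest in IL-17C+ uninvolved skin. IL-17C+KO uninvolved skin exceeded that group by 0.67 ± 0.26 (limma adjusted p = 0.452) and IL-17C+ involved skin by 0.50 ± 0.26 (0.479). At values this low the order between groups is uncertain. Of the 8 neutrophil precursor granule genes measured, Mpo (myeloperoxidase), Elane (neutrophil elastase), Ctsg (cathepsin G) and Fcnb (a ficolin) lay below the array median on all 12 arrays. The other 4 did not: Prtn3 (proteinase 3) was above it on 11 arrays, Chil3 (a chitinase-like protein) on 6, Ngp (neutrophilic granule protein) on 5 and Ltf (lactoferrin) on 2. Chil3 was the 1 gene of the 8 called in IL-17C+ involved against WT skin, at 3.57 ± 0.50 (limma adjusted p = 0.00346).

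Between IL-17C+ involved and WT skin, 3 of the 6 genes rose: Defb3, Defb14 and Defb4. The background was 1.1% of 22180 genes higher and 1.8% called in either direction (limma, Benjamini-Hochberg adjusted p under 0.05). Defb3 rose by 5.20 ± 0.91 (log2 difference ± standard error, 36.9-fold, adjusted p = 0.0122), Defb14 by 3.39 ± 0.32 (10.5-fold, adjusted p = 0.000347) and Defb4 by 1.75 ± 0.37 (3.36-fold, adjusted p = 0.0335). For Defb14 the difference was 3.32 at 10 weeks and 3.45 at 14 weeks, whereas for Defb4 it was 1.15 and 2.35. Defb6 differed by 0.59 ± 0.29 (95% interval -0.04 to 1.22), Defb1 by 0.50 ± 0.36 (-0.27 to 1.28) and Camp by 0.23 ± 0.26 (-0.33 to 0.79), none of which passed. The median over the 6 genes was 1.17 and that over all genes 0.01.

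The call of Defb14 held with any 1 array left out, at a limma adjusted p of 0.00921 or less. That of Defb3 did not: its adjusted p was 0.185 without the 10-week IL-17C+ involved array, 0.0634 without the 14-week array of that group and 0.117 without the 14-week WT array. Defb4 lost its call without any 1 of the 4 arrays compared, with adjusted p from 0.0624 to 0.344, and with no replicate block, at 0.0658. A further fit used the 6 arrays labelled WT and IL-17C+ alone, which leaves out every array labelled KO. There the limma adjusted p was 5.73e-08 for Defb3, 3.4e-06 for Defb14 and 0.0105 for Defb4. This fit has fewer residual degrees of freedom than the main fit, and its standard error for Defb3 was 0.30 against 0.91. The arrays left out include the IL-6KO and IL-17C+KO involved pools, where Defb3 differed between ages by 3.35 and 4.01.

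Other genes of the same setting are given beside them, against the background of 1.1% of all genes higher and 1.8% called in either direction. Of 20 other antimicrobial protein genes, 6 rose and 1 fell over WT (median 0.97), led by Saa3 (serum amyloid A3, 6.64 ± 0.51), S100a8 (6.39 ± 0.72) and S100a9 (6.14 ± 0.75), the calprotectin subunits. Among 40 inducers and regulators of defensin transcription 5 rose (median 0.36), with Il1b at 5.88 ± 0.46, Il1a at 2.43 ± 0.33 and the EGF receptor ligand Hbegf at 1.89 ± 0.39 as the 3 with the smallest p. The 5 include Il17c itself. Of 16 receptors and processing enzymes 4 rose (median 0.41), including the kallikreins Klk6 (3.83 ± 0.49), Klk13 (3.21 ± 0.59) and Klk14 (1.05 ± 0.21). Stressed keratinocyte markers rose in 8 of 11 genes (median 4.60) and neutrophil markers in 9 of 12 (median 2.94), while 17 of 21 muscle markers fell (median -2.25). S100a8 and S100a9 belong to the neutrophil list as well, so these lists are not separate. The part that tissue make-up plays in the defensin differences was not tested apart from the covariate fits given under the processing alternatives.

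Against uninvolved skin of the same label, IL-17C+ involved skin had higher Defb3 and Defb14, 2 of the 6 genes at a background of 0.775% higher and 1.61% in either direction. Defb3 rose by 5.29 ± 0.91 (limma adjusted p = 0.0113) and Defb14 by 3.52 ± 0.32 (adjusted p = 0.000249). Defb4 differed by 1.50 ± 0.37 without passing (adjusted p = 0.0717), although its groups did not overlap, as held for 24.5% of all genes in that direction. The Defb3 call was lost without the 10-week IL-17C+ involved array (adjusted p = 0.146), without the 14-week array of that group (0.0742) and without the 14-week IL-17C+ uninvolved array (0.0940). Defb4 passed in 4 other fits. Its limma adjusted p was 0.0487 with only genes above the array median on at least 2 arrays, and 0.0487 after quantile normalization. With fewer residual degrees of freedom than the main fit, Defb4 had 0.0250 on the 4 arrays compared and 0.0307 on the 6 arrays labelled WT and IL-17C+. It also passed without either IL-6KO array, at 0.0467 and 0.0465.

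Between uninvolved IL-17C+ and WT skin no difference passed the test. By limma 0 of 6 genes were called, at a background of 0.0541%, and 0 of 6 had an unadjusted p under 0.05. Defb1 had the widest difference, at 0.53 ± 0.36 (adjusted p = 0.900, 95% interval -0.25 to 1.31). The intervals for Defb3 (-2.05 to 1.87) and Defb4 (-0.56 to 1.05) do not exclude sizeable shifts.

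In skin labelled IL-6KO, which is labelled as lacking the transgene, Defb4 rose. Against WT, IL-6KO skin had higher Defb4 by 1.96 ± 0.37 (3.89-fold, limma adjusted p = 0.0414), 1 of the 6 genes at a background of 0.361% higher and 0.455% in either direction. All 6 signs were positive, with a median of 1.42 over the 6 genes against -0.01 over all genes. Defb6 differed by 1.26 ± 0.29 (adjusted p = 0.101), Defb14 by 1.57 ± 0.32 (adjusted p = 0.0621), Defb3 by 2.85 ± 0.91 (adjusted p = 0.307) and Defb1 by 0.86 ± 0.36 (adjusted p = 0.538), none past the threshold. The Defb3 difference was 1.08 at 10 weeks and 4.63 at 14 weeks. Hair shaft and follicle markers rose in 10 of 22 genes in the same comparison (median 2.50), and stressed keratinocyte markers in 2 of 11 (median 2.09), whereas 0 of 12 neutrophil markers passed (median -0.01). The part of these tissue differences in the defensin values was not tested.

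The Defb4 call of IL-6KO skin rested on single arrays and on the model. Its limma adjusted p was 0.0534 and 0.466 without the 10- or 14-week IL-6KO array, 0.0881 and 0.198 without the 10- or 14-week WT array, and 0.0596 and 0.0599 without either IL-17C+KO uninvolved array. It was 0.113 with no replicate block and 0.0617 without the intensity trend. Defb14 passed in other fits, at 0.0405 with the filter on low genes, 0.0421 after quantile normalization, 0.0257 on the 4 arrays compared, and 0.0119 and 0.0116 without the 10- or 14-week IL-17C+KO involved array. Defb6 passed only after quantile normalization, at 1.14 and 0.0330.

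**Figure D2:**
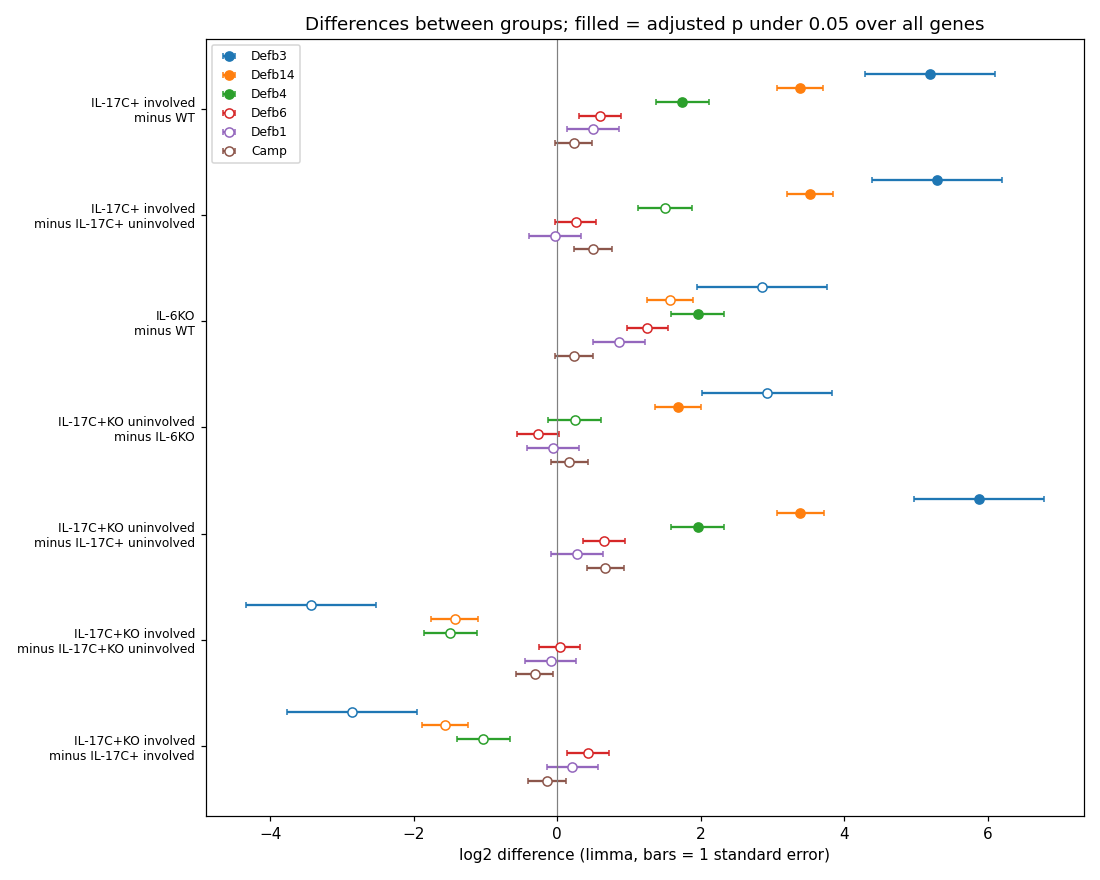
Log2 differences of the 6 genes (horizontal axis) in 7 comparisons (vertical axis, first group minus the second), with bars of 1 limma standard error and filled symbols where the adjusted p over all genes was under 0.05. Defb3, Defb14 and Defb4 lay far to the right in IL-17C+ involved against WT and in IL-17C+KO uninvolved against IL-17C+ uninvolved skin, and to the left in both comparisons of IL-17C+KO involved skin, where no symbol is filled.

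Skin labelled IL-17C+KO uninvolved, which had the highest Il6 levels of the series, exceeded IL-17C+ uninvolved skin in Defb3 by 5.88 ± 0.91 (58.7-fold, limma adjusted p = 0.00788), in Defb14 by 3.39 ± 0.32 (adjusted p = 0.000240) and in Defb4 by 1.96 ± 0.37 (adjusted p = 0.0301). These were 3 of 6 genes at a background of 0.541% higher and 0.712% in either direction. Defb6 differed by 0.65 ± 0.29 (adjusted p = 0.589). The Defb14 call held with any 1 array left out, at 0.00593 or less. Defb3 lost it without the 10-week IL-17C+KO uninvolved array (0.106) or the 14-week IL-17C+ uninvolved array (0.136), and Defb4 without any 1 of the 4 arrays compared (0.0569 to 0.310) and with no replicate block (0.0666). Neutrophil markers rose in 8 of 12 genes here (median 3.13) and stressed keratinocyte markers in 6 of 11 (median 3.58).

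Against IL-6KO skin, IL-17C+KO uninvolved skin had higher Defb14 by 1.68 ± 0.32 (3.21-fold, limma adjusted p = 0.0487), 1 of 6 genes at a background of 0.392% higher and 0.397% in either direction. Defb3 differed by 2.93 ± 0.91 (adjusted p = 0.350), being 4.51 at 10 weeks and 1.35 at 14 weeks. The Defb14 value lay just inside the threshold, and its adjusted p was 0.0786 with no replicate block, 0.0624 without the intensity trend, 0.0725 after quantile normalization and 0.0541 with the mean of all rows. Leaving out 1 of the 4 arrays compared gave 0.197 to 0.411, either IL-17C+ involved array 0.0687 and 0.0684, and the 10-week WT array 0.0504. On the 4 arrays compared alone Defb3 passed as well, at 4.37e-16, with 1 residual degree of freedom.

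No difference of skin labelled IL-17C+KO involved from its comparison groups passed the test. Against IL-6KO skin 0 of 6 genes passed by limma, at a background of 0.171%, with Defb4 at -1.24 ± 0.37 (adjusted p = 0.825) as the single gene with an unadjusted p under 0.05. Against IL-17C+KO uninvolved skin 0 of 6 passed at a background of 0.505%, and 3 had an unadjusted p under 0.05: Defb3 at -3.44 ± 0.91 (adjusted p = 0.195), Defb4 at -1.49 ± 0.37 (0.157) and Defb14 at -1.43 ± 0.32 (0.0968). Against IL-17C+ involved skin 0 of 6 passed at a background of 0.649%, and the same 3 genes had an unadjusted p under 0.05, Defb3 at -2.86 ± 0.91 (adjusted p = 0.250), Defb4 at -1.03 ± 0.37 (0.346) and Defb14 at -1.56 ± 0.32 (0.0525). Neutrophil markers were lower in 7 of 12 genes in each of the last 2 comparisons (medians -3.03 and -3.08).

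These differences depended on which IL-17C+KO involved array was used. Without the 10-week array, Defb3 was -1.73 against IL-17C+KO uninvolved and -1.15 against IL-17C+ involved skin, and Defb14 was -0.80 and -0.93, none of which passed (limma adjusted p = 0.707 or more). Without the 14-week array, Defb3 was -5.14 (limma adjusted p = 0.0145) against IL-17C+KO uninvolved and -4.56 (0.0198) against IL-17C+ involved skin, and Defb14 was -2.06 (0.00837) and -2.19 (0.00534), in each case with 1 array for the involved group. Defb14 also passed against IL-17C+ involved skin at 0.0348 with the filter on low genes, at 0.0357 after quantile normalization, at 0.0394 on the 4 arrays compared, and at 0.0474 and 0.0473 without the 10- or 14-week WT array. Defb4 passed against IL-17C+KO uninvolved skin on the 4 arrays compared (0.0387).

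Whether involvement went with defensins to the same extent in mice labelled IL-17C+ and IL-17C+KO was tested as an interaction over all 12 arrays. The involved minus uninvolved difference was lower in skin labelled IL-17C+KO, with an interaction of -8.73 ± 1.28 log2 units for Defb3 (limma adjusted p = 0.00296), -4.95 ± 0.46 for Defb14 (adjusted p = 9.1e-05) and -2.99 ± 0.53 for Defb4 (adjusted p = 0.00926). These were 3 of 6 genes at a background of 1.43% lower and 2.58% in either direction. For all 3 genes the pools of involved skin lay above those of uninvolved skin in IL-17C+ and below them in those labelled IL-17C+KO, as held for 24.5% and 17.6% of all genes in these directions. In the latter 0 of 6 genes passed by limma. Defb3 and Defb14 kept the call with any 1 array left out (0.0231 and 0.00106 at most), and Defb4 lost it without the 14-week IL-17C+ involved (0.0591) or the 10-week IL-17C+KO uninvolved array (0.0556). The same interaction was lower for 11 of 12 neutrophil markers (median -6.21) and 8 of 11 stressed keratinocyte markers (median -6.55). Of 20 other antimicrobial protein genes 10 were lower and 1 higher (median -1.63), and 18 of 21 muscle markers were higher (median 3.18). The part of these tissue differences in the defensin interactions was not tested. All of this rests on the labels of the IL-17C+KO arrays, whose Il6 and Il17c levels are given above.

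The IL-17C+KO involved minus IL-6KO difference was lower than the IL-17C+ involved minus WT difference, with an interaction of -3.13 ± 0.46 for Defb14 (limma adjusted p = 0.00652) and -2.99 ± 0.53 for Defb4 (adjusted p = 0.0157), 2 of 6 genes at a background of 0.834% lower and 1.31% in either direction. Defb3 was at -5.71 ± 1.28 (adjusted p = 0.0521). It passed with the filter on low genes (0.0377) and without any of 5 single arrays: the 10-week WT (0.0427), the 10-week IL-6KO (0.0375), the 14-week IL-17C+KO involved (0.00288) and the 10- or 14-week IL-17C+ uninvolved array (0.0406 and 0.0404). Defb4 lost its call without the 14-week array of IL-17C+ involved (0.0832), IL-6KO (0.0756) or WT skin (0.0942). In this interaction 8 of 12 neutrophil markers (median -3.21), 6 of 11 stressed keratinocyte markers (median -5.06) and 15 of 22 hair markers (median -4.23) were also lower. Of 20 other antimicrobial protein genes 7 were lower and 1 higher (median -0.89), and 14 of 21 muscle markers were higher (median 3.04). Comparisons that use the same arrays, here IL-6KO and IL-17C+ involved, are not independent of each other.

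No difference between the ages passed the test. At 14 against 10 weeks 0 of 6 genes passed by limma, as did 0% of all genes, and 3 of 6 had an unadjusted p under 0.05: Defb3 at 1.17 ± 0.52, Defb1 at 0.51 ± 0.21 and Defb6 at 0.46 ± 0.17 (adjusted p = 0.590, 0.576 and 0.571). The rise of Defb3 came from 2 groups, IL-6KO by 3.35 and IL-17C+KO involved by 4.01, while the other 4 groups differed between ages by -0.63 to 0.25. Defb1 was higher at 14 weeks in the 3 groups labelled KO, by 0.48 to 1.68, and in WT by 0.44. A separate age slope for the 3 groups labelled as lacking IL-6, added after seeing the data, gave 2.71 ± 0.74 for Defb3 and 0.87 ± 0.35 for Defb1, neither of which passed (limma adjusted p = 0.9998 for both, 0% of genes called). Without either IL-17C+KO uninvolved array the Defb3 value was 3.87. That group then has 1 array and adds nothing to the age slope. It was the group labelled KO in which Defb3 differed between ages by only 0.20.

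**Figure D3:**
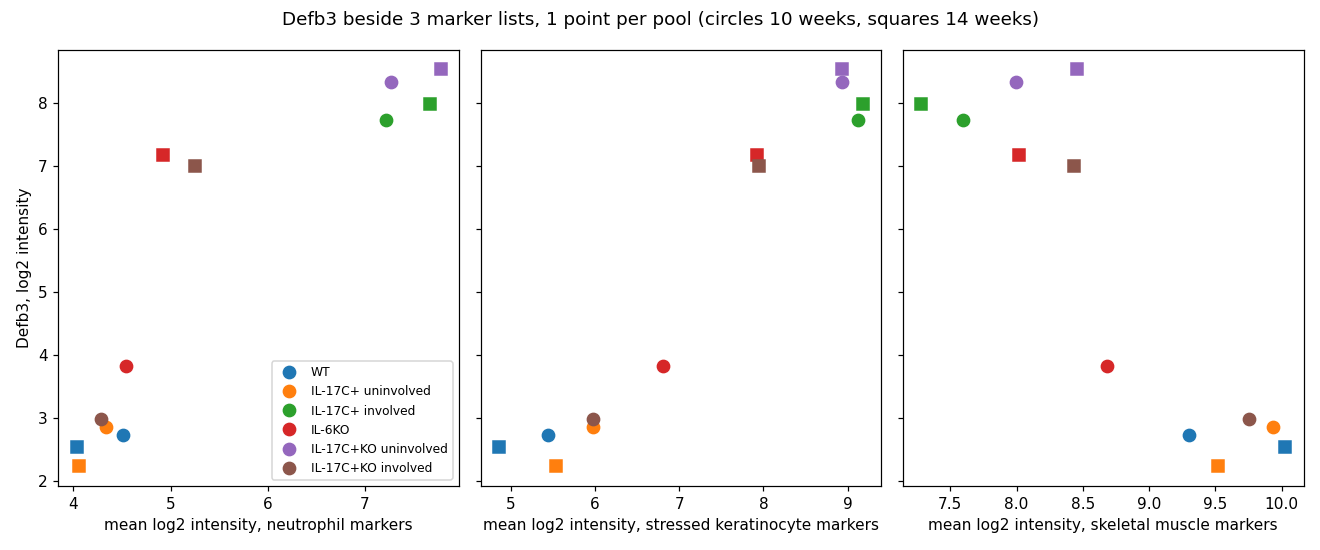
Defb3 as log2 intensity (vertical axis) against the mean log2 intensity of neutrophil, stressed keratinocyte and skeletal muscle markers (horizontal axes), 1 point per pool, coloured by group, circles 10 weeks and squares 14 weeks. The 14-week IL-6KO and IL-17C+KO involved pools reach 7.18 and 6.9997 for Defb3, with neutrophil means of 4.92 and 5.26 and stressed keratinocyte means above 7.9.

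The pools in which Defb3 rose with age give levels of the cell type lists beside it. In IL-6KO skin the stressed keratinocyte mean was 6.81 at 10 and 7.92 at 14 weeks, and the neutrophil mean 4.55 and 4.92. In IL-17C+KO involved skin they were 5.97 and 7.94, and 4.28 and 5.26. The neutrophil mean of IL-17C+ involved and IL-17C+KO uninvolved pools lay at 7.21 or higher. Defb3 exceeded 6.9 log2 units in the 2 pools at 14 weeks. Their neutrophil means were below 5.3 but above those of the same groups at 10 weeks. Muscle means fell from 8.68 to 8.02 in IL-6KO and from 9.75 to 8.43 in IL-17C+KO involved skin between the same ages. The neutrophil list includes S100a8 and S100a9, and the stressed keratinocyte list Sprr2d. These are among the genes most correlated with Defb3 (r = 0.98 each). The part of each list in the Defb3 level was not tested.

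By likeness of pattern, as Pearson correlation over the 12 arrays, the 3 genes nearest to Defb3 were the cornified envelope gene Sprr2d (r = 0.98), S100a9 (r = 0.98) and S100a8 (r = 0.98). Nearest to Defb14 were S100a8 (r = 0.98), the late envelope gene Lce3d (r = 0.98) and the stefin-like gene Cstdc6 (r = 0.97). Defb3 and Defb14 correlated with each other at r = 0.94. Defb4 had other neighbours, the endoplasmic reticulum chaperone Hspa5 (r = 0.91), Creld2 (r = 0.90), a gene of endoplasmic reticulum stress, and Cfap47 (r = 0.89). The mean level of Cfap47 was 2.56 log2 units, below the median of every array, so its correlation rests on low values. Defb6 was nearest to the peptide transporter Slc15a1 (r = 0.96), Tlcd4 (r = 0.95) and Ermp1 (r = 0.95), and Defb1 to Ubxn4 (r = 0.97), Lmbrd2 (r = 0.97) and Dkc1 (r = 0.96). These values describe arrays that share groups, ages and tissue make-up, and each neighbour is chosen for being near.

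No other defensin with a row of its own passed these tests. Rows that name several genes, such as those shared by Defa2, Defa3 and Defa17, were left out and not tested. These were 50 further genes, 37 with Defb and 13 with Defa symbols, 4 of them pseudogenes. By limma 0 were called in any of the 12 comparisons, at a background of 0% to 2.58% of all genes. A count of 0 in 50 is near these shares. Per comparison 0 to 7 had an unadjusted p under 0.05, and 35 lay below the array median on all 12 arrays. Defa34, Defa39 and Defb47 had the highest means (6.42, 6.13 and 5.35). Defb46 and Defb5, which lie between Defb6 and Defb3 on the chromosome, stayed below the array median on all 12 arrays with ranges of 0.61 and 0.89 log2 units, against 6.29 for Defb3. Of all 56 genes, Defb3 and Defb14 had ranges above that of every other defensin, where the largest was 3.33. Defensin genes have near relatives, and whether probes of 1 gene also read another was not tested.

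**Figure D4:**
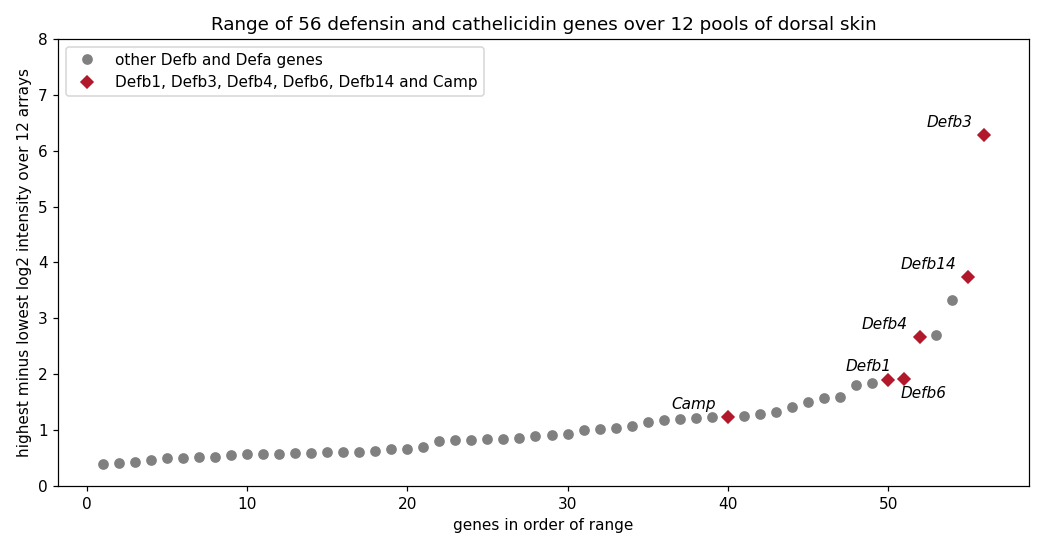
The highest minus the lowest log2 intensity over the 12 arrays (vertical axis) for 56 genes in order of that range (horizontal axis), with diamonds for the 6 genes described and circles for the 50 other defensins. Defb3 at 6.29 and Defb14 at 3.74 stand at the right end, and Camp at 1.24 lies among the other genes.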

How the data were processed

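The authors deposited 1 table of array intensities, which per the submitters' processing notes came from RMA in Affymetrix Expression Console (background correction and normalization between arrays). The sources used here give neither versions nor a genome build. The deposited intensities run from 2.50 to 18385 and are linear, with array medians between 15.7 and 18.8, and all levels here are their log2. Of 41345 rows, 23521 name 1 gene, and the row with the highest mean stood for each of 22180 genes.

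Groups were compared in R 4.3.3 with limma 3.58.1 (lmFit, eBayes with an intensity trend) on all 12 arrays, with group and age as terms, 5 residual and 7.65 prior degrees of freedom. In each of 12 comparisons the Benjamini-Hochberg adjustment covered all genes, with a threshold of 0.05, and the age by IL-6 term came from a further fit with 4. Each p-value measures the spread between pools, which includes age effects that differ by group and is not the spread between mice, and n = 2 limits precision. The fit was tested on simulated data.

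The 6 genes and all lists were chosen with earlier results of these data known. Named are the 6 genes, Il17c and Il6, up to 3 called members per list or the one with the smallest p, the 3 other defensins with the highest means, and, for each of the 6 genes whose own mean exceeded the mean array median, the 3 most correlated genes other than predicted loci. Defb46, Defb5, Defb8 and the precursor granule genes were named after their values were seen. The mean of the neutrophil list as a covariate, the fit without arrays labelled KO and the age by IL-6 term were added after seeing the data. Promoters were aligned with Biopython 1.88.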

Additional observations from a re-analysis of the deposited data

Results flagged for a closer look

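Tests of the difference itself marked 5 results, all with limma over 12 arrays and n = 2 pools per group. The involved minus uninvolved difference was lower in IL-17C+KO than in IL-17C+ mice for Defb3 (-8.73), Defb14 (-4.95) and Defb4 (-2.99). Of all genes, 2.58% were called in that interaction in either direction. The IL-17C+KO involved minus IL-6KO difference was lower than the IL-17C+ involved minus WT difference for Defb14 (-3.13) and for Defb4 (-2.99). There 1.31% of all genes were called in either direction. Both Defb4 calls were lost when some single arrays were left out. Each of the 5 results rests on the labels of the IL-17C+KO or IL-6KO arrays. Il6 read 3.14 to 5.00 on those labelled IL-17C+KO against 2.88 and 2.92 in WT.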

How the results depend on the processing

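Calls among the 6 genes are given as counts. With no replicate block (no age term) and with eBayes without the trend, IL-17C+KO uninvolved against IL-6KO and IL-6KO against WT went from 1 to 0. In that order, 0.37% and 0.117% of all genes were called without the block, and 0.352% and 0.284% without the trend. With no replicate block, IL-17C+ involved against WT and IL-17C+KO against IL-17C+ uninvolved also went from 3 to 2 (1.3% and 0.532% of all genes). The 14 minus 10 week differences of the groups correlated over genes between -0.21 and 0.52, over 0.1 in 7 of 15 pairs, so age is kept as a label and the arrays are not shown to be paired by it. A replicate block of genotype and age left the counts of its 3 comparisons as they were. Over all genes it called 1.87% for IL-17C+ involved against uninvolved, 0.28% for IL-17C+KO involved against uninvolved and 3.08% for the site interaction. IL-6KO against WT was 2 with the low filter (0.954% of all genes), 3 after quantile normalization (0.739%) and 2 on the 4 arrays compared (1.2%). IL-17C+KO involved against IL-17C+ involved was 1 in each of these fits (1.27%, 0.893% and 1.97% of all genes). IL-17C+KO uninvolved against IL-6KO was 0 after quantile normalization (0.325%), 0 with the mean of all rows (0.325%) and 2 on the 4 arrays compared (2.54%). IL-17C+KO involved against uninvolved was 1 on the 4 arrays compared (0.631%).

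With the mean of the muscle list as covariate, counts fell to 0 in all 6 affected comparisons (IL-17C+ involved against WT and against uninvolved, IL-6KO against WT, IL-17C+KO against IL-17C+ uninvolved, both interactions). Over all genes, 0% to 0.0406% were then called in these 6 comparisons, so the counts of 0 are not particular to the 6 genes. Median standard errors were up to 2.24 times as large. Defb3 turned to 0.46 for IL-17C+KO against IL-17C+ involved and to 0.23 for the transgene by IL-6 interaction. With the neutrophil list mean, counts were 0 in those 6 and in IL-17C+KO uninvolved against IL-6KO, with standard errors up to 5.21 times as large. Over all genes, 0% to 0.108% were called in these comparisons. The neutrophil list includes S100a8 and S100a9, which are among the genes most correlated with Defb3. Against WT, IL-17C+ involved skin then had Defb3 at -3.08, Defb1 at -0.67 and Camp at -0.11, and against uninvolved skin Defb3 at -3.20. Defb3 turned to 3.78 (and Defb14 to 0.17) for IL-17C+KO involved against uninvolved, -4.37 for IL-17C+KO uninvolved against IL-6KO, 4.14 for IL-17C+KO against IL-17C+ involved, -2.84 for uninvolved, 2.49 for the transgene and 6.97 for the site interaction. These covariates follow the groups.

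Leaving out each array in turn moved the sizes of the differences. For IL-17C+ involved against WT, Defb3 was 4.39 to 6.02, Defb14 3.12 to 3.66 and Defb4 1.23 to 2.26. For IL-6KO against WT, Defb4 was 1.41 to 2.50. For the site interaction, Defb3 was -10.44 to -7.03, Defb14 -5.58 to -4.32 and Defb4 -3.50 to -2.48. For the transgene interaction, Defb14 was -3.76 to -2.51 and Defb4 -3.53 to -2.44. Counts of calls are not compared over these fits, because the share of all genes called moved as well. A group left with 1 array is assumed to vary like the others. Levels near the array median or below limit the size of rises.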

Other observations

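The beta-defensin gene Defb8, named after its values were seen, read 5.49 log2 units on the 10-week IL-17C+ uninvolved array and 2.16 to 3.07 on the other 11 arrays.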
